A study of Homo sapiens with 4 samples.

Results

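AFP and TTR, with 8 other genes for serum proteins made by the liver, were followed in blood-forming cultures of H1 cells that were harvested on day 8, either treated or not treated with SB431542, an inhibitor of the TGFβ type I receptor. The 10 genes are AFP, TTR, ALB, SERPINA1, FGA, FGB, FGG, AHSG, TF and RBP4. They were found by gene symbol among the 58365 rows of the expression table, and each symbol had 1 row. The genes were selected on their difference in FPKM between the SB431542 and the DMSO libraries together with their known role, so this difference is given as a description, and whether a serum protein gene passed the fit over all genes supports nothing.

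H1 is an established human embryonic stem cell line. In both groups the cells received activin A (40 ng/ml) and BMP4 (50 ng/ml) for 2 days, then VEGF (40 ng/ml) and bFGF (50 ng/ml) for 3 days, and then VEGF and bFGF at those doses for another 3 days. The DMSO group (n = 2 libraries) had no SB431542 in the last step, and the SB group (n = 2 libraries) had it throughout that step. The study describes sequencing CD31-positive cells, which the sample labels do not mention. All libraries come from 1 cell line, and nothing in the labels says that the libraries of a group came from separate cultures, so the spread within a group may be technical and p-values measure only the spread between these libraries.

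The hepatic serum proteins are secreted in large amounts by hepatocytes, and in the early embryo by the visceral endoderm of the yolk sac before the liver forms. AFP is a major serum protein of the fetus, and albumin is the main one of the adult. TTR carries thyroxine and, bound to RBP4, retinol. In liver cells these genes are switched on by a small set of factors, among them the HNF1, HNF4, FOXA and C/EBP families. Endothelial and blood cells are not their usual source, although SERPINA1 is also made by monocytes and macrophages.

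Values are FPKM, fragments counted per kilobase of transcript and per unit of library size, so levels can be compared between genes per length. Between 14183 and 14372 rows reached 1 FPKM in a library. By the steps in the values of single-exon genes, the depth of the other libraries was 75.7% (SB replicate 1) to 93.4% of the deepest, SB replicate 2. The endothelial markers PECAM1 (CD31), CDH5, KDR, TEK, TIE1, VWF, ERG and CLDN5 together summed to 1395 to 1614 FPKM with DMSO and 1385 to 1569 FPKM with SB431542, and all 8 were tested. The 8 blood markers, among them SPN, GATA1, RUNX1, ITGA2B and SPI1, summed to 325 to 368 FPKM with DMSO and 497 to 590 FPKM with SB431542. PTPRC (CD45), which marks mature leukocytes and their progenitors, stayed at or below 0.202 FPKM in each library.

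To show what the promoters of these genes have in common, the RefSeq sequence before the start of transcription was searched for short motifs of the liver factors. A promoter entry was found for 9 of the 10 genes, and none was matched for TTR. The 4 sequences shown are those of AFP and ALB, neighbours of 1 family with very different levels here, and of FGA and FGB, chains of 1 protein. Each is the 250 bases before the start, 5′ to 3′ on the gene's own strand (GRCh38.p14). They lie at chr4:73435971-73436220, plus strand (AFP), chr4:73404037-73404286, plus strand (ALB), chr4:154590743-154590992, minus strand (FGA) and chr4:154562730-154562979, plus strand (FGB). The windows of AFP and ALB lie inside the wider loci that the expression table gives for these genes. Capitals mark matches to a FOXA, C/EBP or HNF1 motif or to the TATA box.
AFP: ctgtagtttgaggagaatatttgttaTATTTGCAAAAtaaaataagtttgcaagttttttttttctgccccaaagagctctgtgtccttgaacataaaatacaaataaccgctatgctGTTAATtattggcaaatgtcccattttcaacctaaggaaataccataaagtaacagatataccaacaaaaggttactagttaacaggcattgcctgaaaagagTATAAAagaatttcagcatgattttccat
ALB: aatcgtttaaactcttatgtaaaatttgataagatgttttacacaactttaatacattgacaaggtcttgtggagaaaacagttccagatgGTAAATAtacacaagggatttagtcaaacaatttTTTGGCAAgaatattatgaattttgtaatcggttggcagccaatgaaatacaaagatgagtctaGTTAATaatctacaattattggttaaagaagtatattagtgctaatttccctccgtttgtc
FGA: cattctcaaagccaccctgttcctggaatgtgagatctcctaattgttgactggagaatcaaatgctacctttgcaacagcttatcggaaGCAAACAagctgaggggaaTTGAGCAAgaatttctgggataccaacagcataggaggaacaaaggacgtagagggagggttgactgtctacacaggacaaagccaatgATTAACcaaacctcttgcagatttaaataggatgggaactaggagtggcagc
FGB: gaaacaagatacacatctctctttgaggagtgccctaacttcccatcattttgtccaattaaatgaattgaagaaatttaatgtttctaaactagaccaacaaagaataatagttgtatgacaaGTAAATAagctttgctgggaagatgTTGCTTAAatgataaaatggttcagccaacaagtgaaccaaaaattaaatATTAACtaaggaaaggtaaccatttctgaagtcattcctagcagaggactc
Each of the 4 holds 1 FOXA match, 1 C/EBP match and 1 HNF1 match, in that order towards the start. No other gene searched holds a match to each of these motifs, so the sequences shown do not stand for the rest. FGG, another chain of the same protein as FGA and FGB, holds none of them. In AFP the FOXA and C/EBP letters overlap. AFP also has a TATA box 29 to 24 bases before the start.

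The letters searched, on both strands, were GTTAAT for HNF1, for FOXA either TGTTTAC or else TGTTTGC or else TATTTAC or else TATTTGC, for HNF4 either CAAAGTC or else CAAAGGTC, TTGCNNAA for C/EBP, CAGAC for SMAD and TATAAA for the TATA box. Counting every listed start from 250 bases before to 50 after it, the HNF1 letters were matched in 5 of the 9 genes, against 6.88% of 35116 promoter windows of the same length. FOXA letters were matched in 6 of the 9 genes (12.1% of all windows) and C/EBP letters in 7 of the 9 (10.5%). SERPINA1, FGB, TF and RBP4 have 2 or 3 listed starts, so they were searched over more sequence than 1 window. In the first listed window alone, HNF1 letters were matched in 4 of the 9 genes, FOXA in 5, C/EBP in 5 and SMAD in 4. The TATA box letters were matched in 2 of the 9 genes over every listed start, and in 11.5% of all windows. HNF4 letters were matched in AHSG alone, where they occur at 2 places, and in 4.26% of all windows. The SMAD letters were matched in 5 genes, SERPINA1, FGG, AHSG, TF and RBP4, and in 45.3% of all windows. In SERPINA1 the FOXA and HNF1 letters lie before the second listed start, and none before the first. These are matches of letters and not measured binding.

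**Figure D1:**
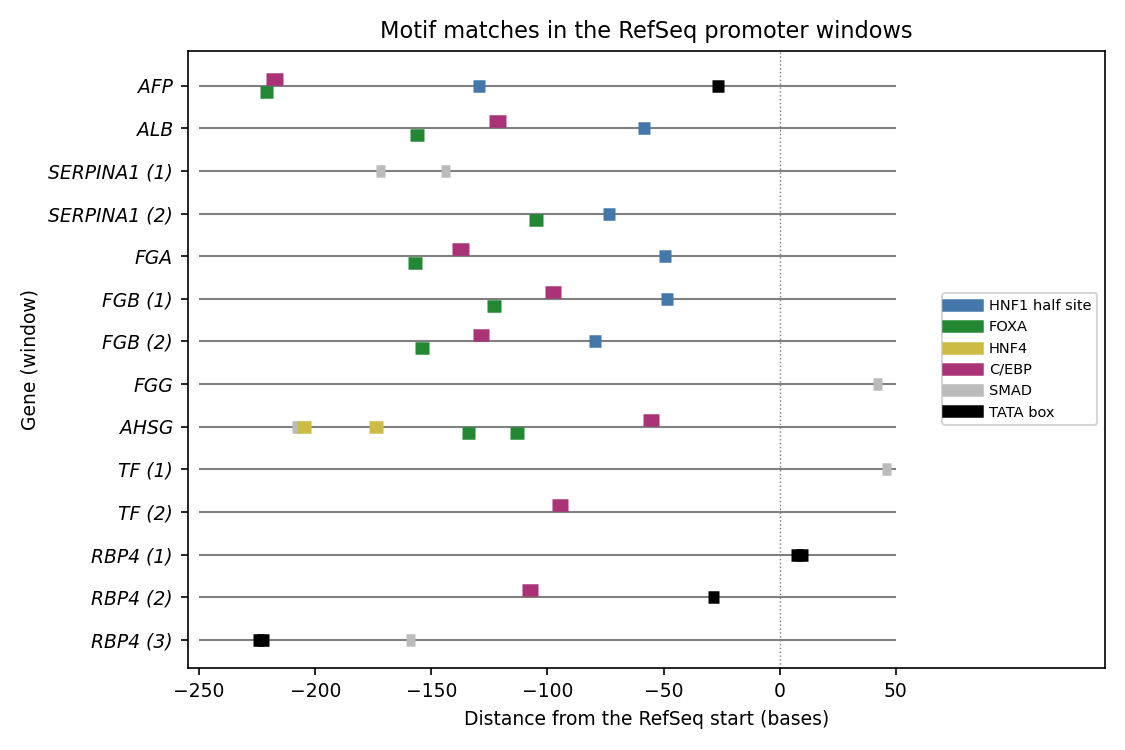
Positions of motif matches (coloured bars) in the RefSeq promoter windows of 9 genes, in bases from the start; genes with several listed starts have a line for each. The windows of AFP, ALB, FGA and FGB each show a FOXA, a C/EBP and an HNF1 match in the same order, and the FGG window holds none of these.

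The first comparison asks how high each gene stood in the 4 libraries. AFP and TTR were well above the other 8 genes with DMSO, and together they made up 82.9% and 84.3% of the FPKM summed over the 10 genes. With SB431542 they made up 68.9% and 67.8%. That sum was 107 and 133 FPKM with DMSO, against 12.9 and 12.7 FPKM with SB431542.

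AFP (ENSG00000081051.7, GRCh38 chromosome 4, 73431138 to 73456174, plus strand) encodes alpha-fetoprotein, the fetal member of the albumin family. Its level was 43.5 and 54.2 FPKM with DMSO, against 3.45 and 3.05 FPKM with SB431542. The groups were far apart, with both SB libraries below both DMSO libraries. The mean was 48.9 ± 7.58 FPKM with DMSO and 3.25 ± 0.286 FPKM with SB431542 (SD, n = 2 each), a ratio of 15.0 (12.6 within replicate 1 and 17.8 within replicate 2). On the log2(FPKM + 1) scale the difference was -3.55, and -3.32 and -3.77 within the replicate numbers. Among the tested genes its level was higher than that of 84.2% and 89.1% in the DMSO libraries, and of 26.2% and 23.7% in the SB libraries. About 2329 and 2800 fragments stood behind the DMSO values and about 149 and 174 behind the SB values.

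TTR (ENSG00000118271.9, chromosome 18, 31591726 to 31599021, plus strand) encodes transthyretin. It stood at 44.95 and 57.9 FPKM with DMSO and at 5.45 and 5.55 FPKM with SB431542, again without overlap. The mean FPKM was 9.36 times as high with DMSO (8.25 times within replicate 1 and 10.4 times within replicate 2). The difference was -3.00 on the log2(FPKM + 1) scale, with -2.83 and -3.17 within the replicate numbers. AFP and TTR had nearly equal levels with DMSO, at AFP to TTR ratios of 0.968 and 0.936. With SB431542 AFP was the lower of the pair in each library, at ratios of 0.633 and 0.549.

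RBP4 (ENSG00000138207.13, chromosome 10, 93591687 to 93601744, minus strand) encodes the plasma carrier of retinol that travels bound to transthyretin. It stood at 3.73 and 1.96 FPKM with DMSO and at 0.195 and 0.393 FPKM with SB431542. The groups did not overlap, but the DMSO libraries differed widely, and the ratio was 19.1 within replicate 1 and 4.996 within replicate 2. About 94.1 and 47.3 fragments were behind the DMSO values, and about 3.9 and 10.5 behind the SB values. The difference of -1.54 on the log2(FPKM + 1) scale became -2.88 with a pseudocount of 0.1.

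ALB (ENSG00000163631.16, chromosome 4, 73397114 to 73421412, plus strand) encodes albumin, the most abundant protein of adult plasma, and ends 9726 bases before AFP begins. In contrast to AFP it was near the bottom of the range in each library, at 0.233 and 0.481 FPKM with DMSO and 0.119 and 0.272 FPKM with SB431542. The groups overlapped. Only about 4.6 to 22.4 fragments lay behind each value, so that a difference of this size was not resolved at this depth. The ratio of AFP to ALB was 187 and 113 with DMSO and 29.1 and 11.2 with SB431542.

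The fibrinogen chains FGA, FGB and FGG join into the soluble precursor of fibrin, and their genes lie side by side on chromosome 4. FGB (ENSG00000171564.11, 154562956 to 154571086, plus strand) was the highest of them, at 5.50 and 6.60 FPKM with DMSO and 1.25 and 0.691 FPKM with SB431542. FGA (ENSG00000171560.14, 154583126 to 154590766, minus strand) stood at 1.97 and 1.96 FPKM with DMSO and at 0.388 and 0.411 FPKM with SB431542. FGG (ENSG00000171557.16, 154604134 to 154612967, minus strand) stood at 0.577 and 0.939 FPKM with DMSO and at 0.414 and 0.215 FPKM with SB431542. None of the 3 overlapped between the groups, and the nearest values were those of FGG in replicate 1. The ratios of the means were 6.24 for FGB, 4.91 for FGA and 2.41 for FGG. The 3 chains were not equal in level, and the ratio of FGB to FGG was 9.53 and 7.03 with DMSO and 3.02 and 3.22 with SB431542. The FGG values rest on about 20.8 and 32.5 fragments with DMSO and about 12 and 8.2 with SB431542.

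SERPINA1 (ENSG00000197249.13, chromosome 14, 94376747 to 94390693, minus strand) encodes alpha-1-antitrypsin, the inhibitor of neutrophil elastase. It stood at 4.49 and 6.78 FPKM with DMSO and at 0.424 and 0.705 FPKM with SB431542, without overlap. The ratio of the means was 9.99, and it was 10.6 and 9.62 within the replicate numbers, close to the ratio for TTR. AHSG (ENSG00000145192.12, chromosome 3, 186612923 to 186621318, plus strand), which encodes the mineral-binding plasma protein fetuin-A, was low throughout. It stood at 0.581 and 0.433 FPKM with DMSO and at 0.214 and 0.0694 FPKM with SB431542, without overlap. These values correspond to about 20.2 and 14.5 fragments with DMSO and to about 6.0 and 2.6 fragments with SB431542.

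TF (ENSG00000091513.14, chromosome 3, 133745956 to 133779006, plus strand) encodes transferrin, the iron carrier of plasma. Its level was 1.18 and 1.78 FPKM with DMSO and 1.01 and 1.32 FPKM with SB431542. The groups overlapped, and the ratio of the means was 1.28. The difference was -0.19 on the log2(FPKM + 1) scale (-0.12 and -0.26 within the replicate numbers). The ratio of AFP to TF was 36.8 and 30.4 with DMSO and 3.43 and 2.31 with SB431542.

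**Figure D2:**
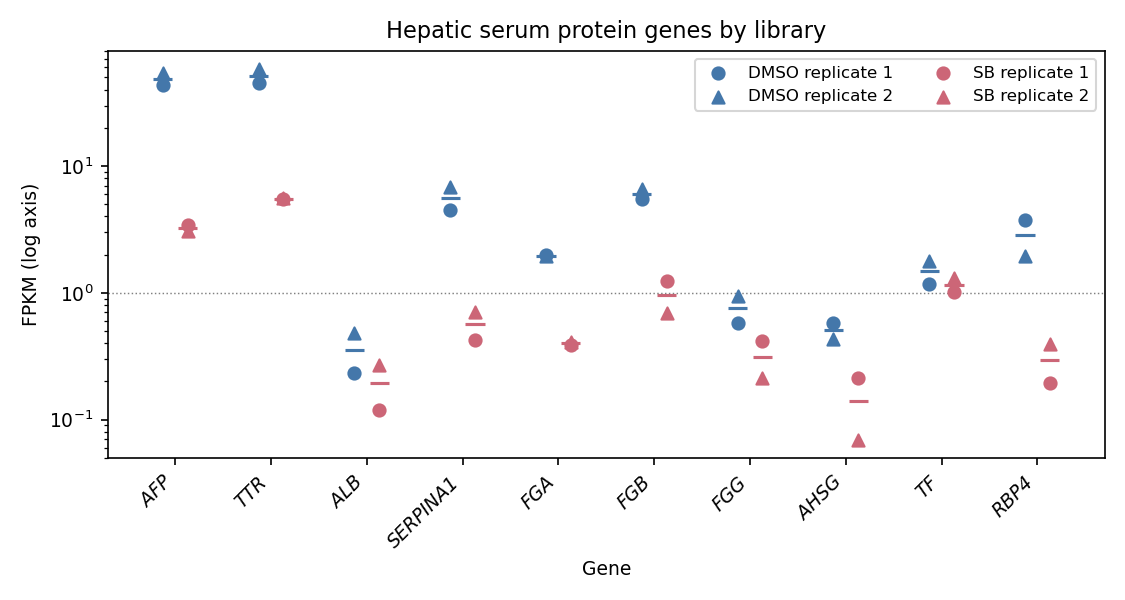
FPKM (log axis) of the 10 genes in each library; blue marks are DMSO, red marks SB431542, circles replicate 1, triangles replicate 2, short lines group means and the dotted line 1 FPKM. AFP and TTR stand highest in both groups, 8 genes do not overlap between the groups, and ALB and TF overlap.

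In order of the DMSO means the genes were TTR, AFP, FGB, SERPINA1, RBP4, FGA, TF, FGG, AHSG and ALB. The ranges of TTR and AFP overlapped, as did those of FGB and SERPINA1, of RBP4 and FGA, of FGG and AHSG, and of AHSG and ALB. With SB431542 the order was TTR, AFP, TF, FGB, SERPINA1, FGA, FGG, RBP4, ALB and AHSG. There TTR lay above AFP and AFP above TF without overlap, the ranges of TF and FGB, FGB and SERPINA1, and of each neighbouring pair from FGA down overlapped, and TF had moved from the seventh place to the third. Of the 10 genes, 7 reached 1 FPKM in both DMSO libraries and 3 (AFP, TTR and TF) in both SB libraries. None was listed at 0 in any library.

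The next comparison sets the differences of the 10 genes beside those of all genes. Genes with a mean of at least 1 FPKM in at least 1 group were tested with limma on log2(FPKM + 1), which kept 14909 genes and 7 of the 10. ALB, FGG and AHSG fell below that limit. At an adjusted p under 0.05, 0.107% of the tested genes were lower and 0.0268% higher with SB431542, together 20 genes or 0.134%. AFP and TTR are 2 of these, and neither is among those called when any 1 of the 4 libraries is left out. The genes were selected on this contrast, so nothing is read from that count. Unadjusted p under 0.05 were found for 9.96% of the tested genes. With the replicate number as a block, which the labels do not establish as a pairing, 4.99% of the tested genes were lower and 5.50% higher at an adjusted p under 0.05. In the order of the differences, the most negative first, AFP ranked number 10, TTR number 14, SERPINA1 number 48, FGB number 68, RBP4 number 109, FGA number 265 and TF number 3291 of the 14909 tested genes.

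All 10 genes were lower with SB431542 within both replicate numbers, as were 30.6% of the tested genes. Both SB libraries lay below both DMSO libraries for 8 of the 10, as for 16.0% of all 29447 rows above 0 in at least 1 library. A log2 difference of -1 or less was seen in 6 of the 10 and in 2.16% of the tested genes, and one of -2 or less in 3 of the 10 (AFP, TTR and SERPINA1) and in 0.369% of the tested genes. The median difference was -1.31 over the 10 genes (-1.32 within replicate 1 and -1.08 within replicate 2), beside 0.040 over all tested genes. Shares and medians over tested genes leave out rows below the limit for testing, whereas the 10 include ALB, FGG and AHSG. Over the 7 tested serum protein genes the median was -1.85. Of these, SERPINA1, FGA, FGB and RBP4 reached the limit for testing with DMSO alone. Their SB means were 0.564, 0.400, 0.970 and 0.294 FPKM, so this median is weighted towards genes that were higher with DMSO. With 1 added to each FPKM, the differences of genes below 1 FPKM are understated. With 0.1 added they became -1.06 for FGG, -1.39 for AHSG and -0.63 for ALB. In bulk libraries, fewer cells that make these proteins and less RNA per such cell cannot be told apart.

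**Figure D3:**
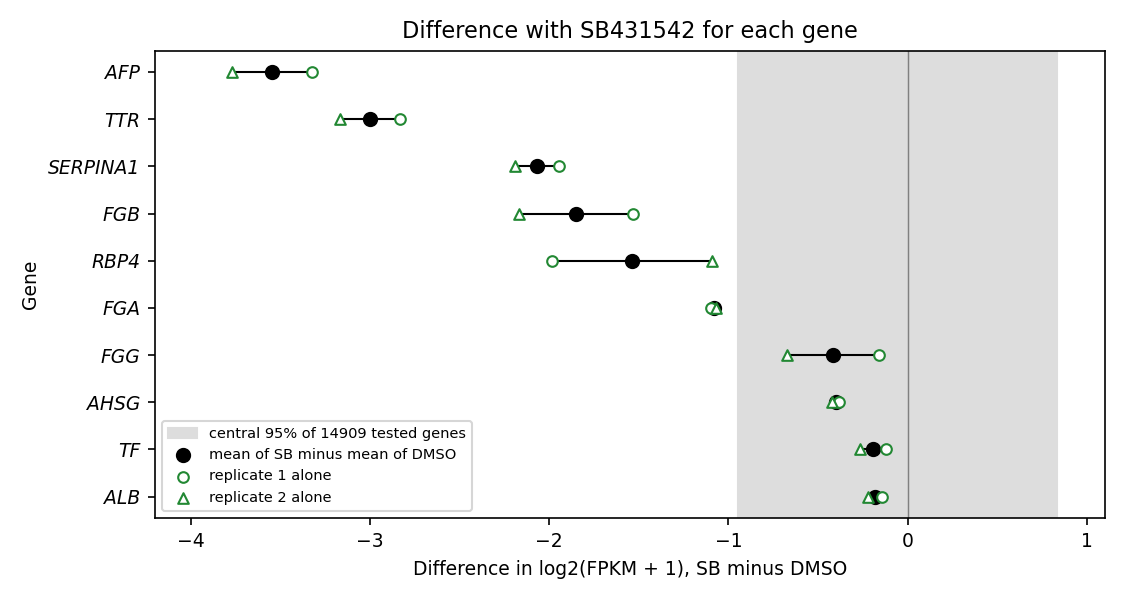
Difference in log2(FPKM + 1), SB minus DMSO, for the 10 genes; filled circles are the means, open circles and triangles replicates 1 and 2 alone, and the grey band holds the central 95% of 14909 tested genes. AFP, TTR, SERPINA1, FGB, RBP4 and FGA lie below the band, which reaches from -0.95 to 0.83, and FGG, AHSG, TF and ALB lie within it.

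Outside the 10 genes, those with the 4-library pattern most like that of AFP, by the Euclidean distance between centred log2(FPKM + 1) profiles, were SOST, APOA1, HTRA1, AL591623.2 and LCN15 (distances 0.400 to 0.689). SOST encodes the secreted BMP and WNT antagonist sclerostin, APOA1 the main protein of high-density lipoprotein and HTRA1 a secreted protease. Outside the 10, those most like TTR were ACTC1, APOA2, GNRH2, HTRA1 and CRHBP (distances 0.163 to 0.394), where ACTC1 encodes cardiac actin and APOA2 another lipoprotein component. TTR itself lay 0.557 from AFP, and the other tested serum protein genes lay 1.51 (SERPINA1) to 3.36 (TF) from it. With 4 libraries in 2 groups, this distance mostly follows the size of the difference between the groups.

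Lists of related genes, most of them other products of liver and endoderm, were described next, with the 10 genes left out. The lists were chosen with earlier results of these data known. Their counts beside the shares of all genes are therefore a description and no test of how far the pattern reached. Of 8 tested apolipoprotein genes (13 listed), 2 were lower at an adjusted p under 0.05 and 0 higher, and all 8 were lower within both replicate numbers, beside 0.107%, 0.0268% and 30.6% of all tested genes. APOA1 fell from 64.2 and 56.3 FPKM to 3.31 and 3.39 FPKM (log2 difference -3.81, limma adjusted p 0.0201). APOA2 fell from 120 and 141 FPKM to 14.5 and 18.2 FPKM (-2.93, limma adjusted p 0.0365). Without any 1 of the 4 libraries 0 apolipoprotein genes passed. APOB, the scaffold of low-density lipoprotein, stood at 2.30 and 3.79 FPKM with DMSO and 0.492 and 0.712 FPKM with SB431542 (-1.31, limma adjusted p 0.223). APOE, which many cell types make, was the highest of the list, and its groups overlapped (502 and 361 FPKM with DMSO, 365 and 302 FPKM with SB431542). The list's median difference was -1.09 over the 8 tested genes and -0.45 over all 13, of which 3 were listed at 0 in all libraries. The limit for testing admits genes that reach it in 1 group alone, such as APOA4 and APOC3, listed at 0 in both SB libraries. In the lists below, VTN, F10, C3, HNF4A, FOXA2 and VIL1, among others, reached it with DMSO alone. LRG1 and F13A1, among others, reached it with SB431542 alone. Counts and medians over tested genes carry this limit.

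Other plasma proteins of the liver gave a median difference near 0. Of the 32 listed plasma carriers and protease inhibitors, only 8 were tested and 10 were listed at 0 in all libraries, among them AFM and GC, the other members of the albumin family. With limma 0 of the 8 passed the adjustment, and 2 were lower and 0 higher at an unadjusted p under 0.05, beside 5.16% and 4.80% of all tested genes. The median was 0.014, beside 0.040 over all tested genes. VTN (vitronectin) stood at 3.59 and 3.84 FPKM with DMSO and at 0.581 and 0.206 FPKM with SB431542 (log2 difference -1.77, limma adjusted p 0.105), and SERPINF1, an inhibitor of vessel growth, differed by -0.93 (limma adjusted p 0.208). LRG1 differed by 0.36 (limma adjusted p 0.754). SERPING1, the C1 inhibitor, and A1BG were the highest of the list, with differences of -0.17 and -0.14.

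Clotting factors and complement genes gave few testable members. Of 14 coagulation and fibrinolysis factors 3 were tested and 0 passed the adjustment with limma. At an unadjusted p under 0.05, 2 of the 3 were lower, beside 5.16% of all tested genes. Factor X (F10, activator of prothrombin) stood at 1.66 and 2.03 FPKM with DMSO and 0.208 and 0.125 FPKM with SB431542 (log2 difference -1.28, limma adjusted p 0.181), and F12 differed by -0.87 (limma adjusted p 0.467). PROS1 (protein S), which endothelial cells also make, overlapped between the groups at 22.6 and 31.5 FPKM and 22.1 and 27.9 FPKM. Of 18 complement genes 6 were tested and 0 passed with limma. At an unadjusted p under 0.05, 2 of the 6 were lower, beside 5.16% of all tested genes. The median was -0.50 over the 6 and -0.0195 over all 18. MASP1, a protease of the lectin pathway, C3, the component all pathways share, and C1R differed by -0.63, -0.69 and -0.49, and C1S by 0.30, with limma adjusted p of 0.311, 0.455, 0.607 and 0.760.

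Most enzymes of mature hepatocytes were at or near 0. Of 25 listed, 22 were below the limit for testing, among them CYP3A4, CYP7A1, ARG1 and TAT, none of which exceeded 0.375 FPKM. G6PC, PCK1 and ADH4 were listed at 0 in all libraries. The 3 tested were CYP27A1, CYP2E1 and CPS1, of which 0 passed with limma. At an unadjusted p under 0.05, 1 was lower (CYP27A1, difference -0.59, limma adjusted p 0.348), beside 5.16% of all tested genes. CYP2E1 differed by -0.37 and CPS1 by 0.22, with limma adjusted p of 0.759 and 0.930.

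Of the 22 listed transcription factors of hepatic and endodermal cells 13 were tested and 0 passed with limma. At an unadjusted p under 0.05, 3 of the 13 were lower, beside 5.16% of all tested genes. HNF4A, the nuclear receptor central to hepatocyte genes, was low, at 1.52 and 0.673 FPKM with DMSO and 0.172 and 0.0516 FPKM with SB431542 (log2 difference -0.89, limma adjusted p 0.449). GATA4 stood at 35.5 and 22.9 FPKM with DMSO and 9.68 and 6.05 FPKM with SB431542 (-1.77, limma adjusted p 0.187), and the pioneer factor FOXA2 at 2.73 and 1.59 FPKM and 0.547 and 0.234 FPKM (-1.17, limma adjusted p 0.291). HHEX and CEBPB had the highest means of the list over the 4 libraries and overlapped between the groups, with differences of 0.080 and 0.43. The list's median was -0.25 over the 13 tested genes and -0.15 over all 22.

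In the list of endoderm epithelium 8 of the 12 tested genes were lower in the SB libraries without overlap (16.0% of all tested genes). Among these were KRT8, KRT18, KRT19, EPCAM and S100A14. DAB2 was higher without overlap, and SOX17, LHX1 and AMN overlapped between the groups. Of these 12 (18 listed) 1 was lower at an adjusted p under 0.05 and 0 higher, and 8 were lower at an unadjusted p under 0.05, beside 0.107% and 5.16% of all tested genes. S100A14 fell from 9.81 and 9.20 FPKM to 0.900 and 1.16 FPKM (log2 difference -2.38, limma adjusted p 0.0463), which also did not pass without any 1 library or under a stricter filter. KRT19 stood at 48.0 and 36.6 FPKM with DMSO and 10.6 and 8.14 FPKM with SB431542 (-2.06, limma adjusted p 0.0807), and KRT8 and KRT18 differed by -1.17 and -0.51 (limma adjusted p 0.105 and 0.445). EPCAM, a surface marker of epithelium, had a difference of -1.40 (limma adjusted p 0.161). The list's median was -0.95 over the 12 tested genes and -0.49 over all 18. SOX17, shared by endoderm and endothelium, stood at 53.3 and 17.5 FPKM with DMSO and at 49.3 and 17.3 FPKM with SB431542. LHX1 and AMN differed by -0.16 and -0.072. The 18 genes summed to 316 to 357 FPKM with DMSO and to 184 to 204 FPKM with SB431542. The markers CUBN, LRP2, EOMES, CER1 and GSC were too low to be tested, with none above 1.11 FPKM. The part of such epithelial cells in the values of the serum proteins was not tested.

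For mesenchymal and cardiac markers the 6 tested genes (8 listed) were lower in both SB libraries than in both DMSO libraries, as were 16.0% of all tested genes. None of them passed with limma (0 of 6), 5 were lower at an unadjusted p under 0.05 (5.16% of all tested genes), and the summed level was 258 to 327 FPKM with DMSO and 111 to 122 FPKM with SB431542. COL1A1, COL3A1 and NKX2-5 differed by -2.46, -1.03 and -1.95, with limma adjusted p of 0.0646, 0.200 and 0.274. TNNT2 and MYH6, which define beating heart muscle, were below 0.9 FPKM in each library. The part of these cells in the values of the serum proteins was not tested. The endothelial list had a median of -0.14, with CDH5 at -0.28, ERG at -0.22 and CLDN5 at 1.04. The blood list had a median of 0.63, with RUNX1 and SPN at 0.81 and 0.80. With limma 0 genes of either list passed. At an unadjusted p under 0.05 there were 1 endothelial gene (higher) and 5 blood genes (4 higher and 1 lower). Of all tested genes 4.80% were higher and 5.16% lower at that limit.

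**Figure D4:**
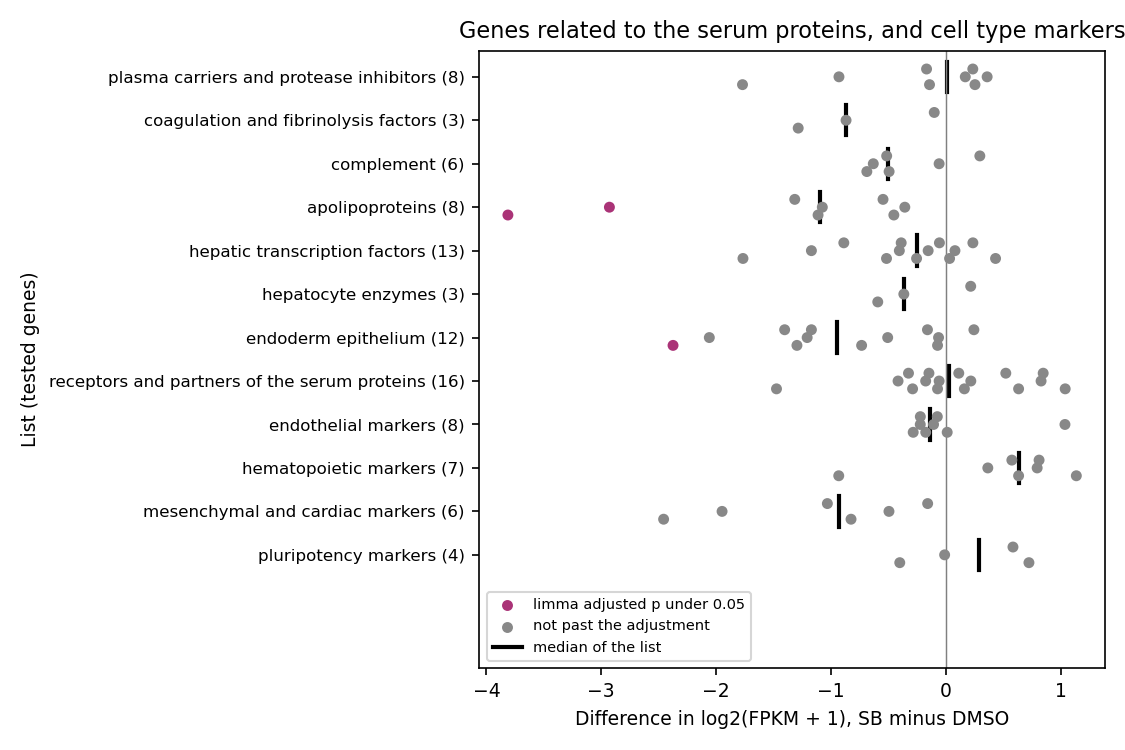
Difference in log2(FPKM + 1), SB minus DMSO, for each tested gene of 12 lists, the 10 serum protein genes left out; black bars are medians and purple points passed an adjusted p of 0.05. APOA1, APOA2 and S100A14 are the 3 purple points. The apolipoprotein and endoderm epithelium lists have medians of -1.09 and -0.95 over tested genes, and of -0.45 and -0.49 over all listed genes.

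Receptors and partners of the serum proteins formed a mixed list. Of 16 tested genes (21 listed) 0 passed with limma, and the median was 0.028. At an unadjusted p under 0.05, 1 was lower and 5 were higher, beside 5.16% and 4.80% of all tested genes. ITGA2B and ITGB3, which form the platelet receptor for fibrinogen, were higher in both SB libraries. ITGA2B stood at 153 and 127 FPKM with DMSO and at 243 and 194 FPKM with SB431542 (log2 difference 0.63, limma adjusted p 0.410), and ITGB3 at 75.0 and 70.4 FPKM and 134 and 126 FPKM (0.83, limma adjusted p 0.200). ITGB2, a subunit of leukocyte integrins, differed by 0.85 and LRP1, a scavenger receptor, by -1.47 (limma adjusted p 0.226 and 0.167). The transferrin receptor TFRC overlapped between the groups, at 28.0 and 39.5 FPKM with DMSO and 26.4 and 33.99 FPKM with SB431542. ELANE, the protease held in check by SERPINA1, was listed at 0 in all libraries.

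Genes beside the 10 in the genome were compared to see whether whole regions moved. Within 200 kb of the 10 genes lay 94 other rows, of which 21 were tested. With limma 0 of the 21 passed the adjustment. At an unadjusted p under 0.05, 1 was lower and 1 higher, beside 5.16% and 4.80% of all tested genes. Without overlap 2 were lower and 6 higher, beside 16.0% and 21.5% of all tested genes, and the median difference was 0.081. PLRG1, the nearest tested gene to the fibrinogen cluster and 12521 bases from FGB, stood at 34.9 and 38.0 FPKM with DMSO and 42.6 and 41.8 FPKM with SB431542. ANKRD17, 138316 bases from ALB, differed by 0.11, and the flanks of TTR, B4GALT6 and DSG2, by 0.031 and -0.31. SRPRB and RAB6B beside TF differed by 0.28 and -0.37, CEP55 and FRA10AC1 beside RBP4 by 0.38 and 0.015, and the non-coding AC068631.3 and AC068631.2 beside AHSG by -0.20 and 0.075. No neighbour of SERPINA1 within that distance was high enough to be tested.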

How the data were processed

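RNA of 4 libraries, 2 per group, was sequenced by a service company. The authors deposited 1 table of FPKM values with a locus per row and 1 column per library. The submitters' processing notes name BWA, Bowtie and RSEM and the build hg19, with no role given. The loci in the table are on GRCh38: 95.5% of rows carry an identifier of GENCODE release 29, and 99.8% of these have its position once 1 is added to the start. Strand use in counting and scaling between libraries are not given in the sources used here.

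The 10 genes and all lists were chosen with earlier results of these data known. Genes with a mean of at least 1 FPKM in at least 1 group were fitted with limma 3.58.1 (R 4.3.3) on log2(FPKM + 1), with empirical Bayes and a trend, group as the only term, two-sided p-values and Benjamini-Hochberg adjustment over all 14909 genes. An exact permutation test of 2 against 2 libraries cannot pass 0.05 and was not used. For 423 to 457 single-exon genes with 1 transcript the lowest FPKM step gave what 1 fragment is worth, and between 96.3% and 97.0% of low values lay within 0.1 of a whole number of fragments. Fragment numbers for the 10 genes assume the principal coding transcript, and were not estimated for TTR and TF, whose identifiers differ in version, or given for SERPINA1, which has 16 coding transcripts. They cover counting error only. In each list the text names the genes past the adjustment, filled up to 3 by the smallest p, and the 2 highest, and other genes named were chosen after their values were seen. A few list members are counted but not reported by name here. Alternatives were quantile normalization, upper-quartile scaling, 2 other filters, a pseudocount of 0.1, the replicate number as a block and the removal of each library. Promoter windows are RefSeq's on GRCh38.p14.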

Additional observations from a re-analysis of the deposited data

How the results depend on the processing

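Over all alternatives, 87 recomputed differences of the 10 genes kept their direction, and 11 moved by at least 1 SD, 9 of them with a pseudocount of 0.1. The 2 other filters and the replicate block cannot change a gene's difference, so their part of the 87 was fixed in advance. The genes were also selected on this contrast, so the kept direction is a description only. The median over the tested serum protein genes, -1.85 over 7, was -1.31 with no filter, -3.00 when 2 or more libraries had to reach 5 FPKM and -2.88 with a pseudocount of 0.1, since the filters leave 10 and fewer genes and the pseudocount weights low values. It ranged from -1.96 to -1.65 without single libraries.

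The number of genes past the adjustment, 20, was 31 under quantile normalization (9 higher, 22 lower), 0 with no filter (2739 at an unadjusted p under 0.05) and 0 to 14 without single libraries, where 0 was reached without DMSO replicate 1 (1168 at an unadjusted p under 0.05), 14 without DMSO replicate 2, 10 without SB replicate 1 and 9 without SB replicate 2. With the replicate number as a block it was 1564. The labels do not say that the numbers mark shared cultures, and with 2 pairs the correlation of same-numbered deviations (0.528 across genes) does not establish it. With the block the counts were 6 serum protein genes (AFP, TTR, SERPINA1, FGA, FGB and RBP4), 5 apolipoproteins, 7 endoderm epithelium genes, 5 receptors and partners, 2 plasma carriers and protease inhibitors, 2 hepatic transcription factors, 2 neighbours, 1 coagulation factor, 1 complement gene and 1 hepatocyte enzyme. Of the serum protein genes, which were selected on this contrast, so that their calls say nothing of stability, 2 passed in the fit reported and 0 with no filter or without any single library. The same 0 was found there for the apolipoproteins, and for endoderm epithelium, where it was also 0 under the stricter filter. The cause was not tested, beyond the larger number of genes with no filter and the smaller number of libraries. The differences of TF and ALB were as small as -0.016 and -0.048 without DMSO replicate 2. Depth limits ALB, AHSG and FGG, whose values rest on about 2.6 to 32.5 fragments.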

Other observations

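SLCO2A1, which encodes a prostaglandin transporter and lies 153690 bases from TF, was chosen after its values were seen. It stood at 4.83 and 5.505 FPKM with DMSO and at 0.503 and 0.600 FPKM with SB431542 (log2 difference -1.99, limma adjusted p 0.0753), while TF itself overlapped between the groups.

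APOA4 stood at 1.07 and 1.15 FPKM and APOC3 at 1.19 and 1.13 FPKM with DMSO, and both were listed at 0 in both SB libraries (limma adjusted p above 0.05). F2, the precursor of the protease that cleaves fibrinogen, stood at 0.566 and 0.539 FPKM with DMSO and at 0.0877 and 0.0738 FPKM with SB431542 and was too low to be tested. F13A1, the subunit of the enzyme that cross-links fibrin, went the other way, at 0.0554 and 0.135 FPKM with DMSO and 1.099 and 1.41 FPKM with SB431542 (log2 difference 1.04). These 4 genes were chosen after their values were seen. Of the pluripotency markers 4 of 6 were tested and 0 passed with limma. POU5F1 was at 0.72, LIN28A at 0.59, ZFP42 at -0.40 and DPPA4 at -0.0098. At an unadjusted p under 0.05, 2 were higher and 0 lower, beside 4.80% and 5.16% of all tested genes.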
